A study of Mus musculus with 18 samples.

Results

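Protein phosphatase 1 (PP1) and its regulators were followed in round spermatids of WT, GRTH-KO (KO) and GRTH-KI (KI) mice. The members were the genes whose symbol begins with Ppp1c, the catalytic subunits, or with Ppp1r and a digit, the regulatory subunits, with pseudogenes named as such left out. The rule found 45 of the 54232 genes in the count table, of which 37 passed the filter on low counts and were tested. PP1 is a serine/threonine phosphatase whose catalytic subunit has little specificity of its own. Each regulatory subunit holds it at one place or substrate, or inhibits it, usually through a short docking motif. In the testis the gamma catalytic subunit has a splice form that is abundant in germ cells, and PP1 inhibitors are known from work on sperm motility.

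The study concerned GRTH, the testis RNA helicase encoded by Ddx25, which spermatids need in order to elongate. RNA was sequenced from round spermatids purified by sedimentation from testes of mice 75 to 85 days old, in 6 libraries for each of the 3 genotypes. WT mice carried the intact gene, KO mice lacked it, and KI mice carried the human gene with a missense mutation, which leaves the protein without its phosphorylated form. In both mutant lines round spermatids stop before elongation, so mutant and WT libraries may hold different mixtures of stages. The sources do not tell whether each library was 1 animal, and the p-values measure the spread between these libraries.

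Library totals ran from 18766971 to 26776555 counts, and levels are given as CPM (counts scaled to a common library size) after TMM normalization. Mouse Ddx25 was at 538 to 607 CPM in WT and at 47.7 to 90.9 CPM in KO. It was at 0.0456 to 0.519 CPM in 5 KI libraries, but the library labelled KI 4 held 56.9 CPM, inside the KO range. It is called KI 4 here after its label alone. The KI counts of members and partners, and the KI values of many but not all of the genes described, are also given without it. KI 4 and KO 2 were the closest pair of all libraries, with a variance between them 1.59 times that of sampling alone. Mitochondrial rRNA took 7.07 to 21.3% of counts, most in KO 3. The summed level of 8 round spermatid markers was 809 to 1383 CPM in WT, 499 to 1200 CPM in KO and 552 to 775 CPM in KI, and 1 of the 8 was called lower in KO and 4 in KI. The summed level of 7 elongating spermatid markers, transition proteins and protamines among them, was 13901 to 19346 CPM in WT, 1626 to 4080 CPM in KO and 2145 to 3342 CPM in KI, and all 7 were lower in both mutants. All 6 Leydig cell markers were higher in both, from a sum of 9.88 to 20.6 CPM in WT to 30.4 to 53.6 in KO and 13.4 to 68.9 in KI, and no defining marker of either list was at 0. In bulk RNA, fewer cells of a type and less RNA per cell cannot be told apart.

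Among the tested members, 12 were higher and 5 lower in KO when set against WT, and 11 were higher and 6 lower in KI. Here and below a gene was called when its adjusted p, from edgeR's quasi-likelihood test with Benjamini-Hochberg adjustment over all 21058 tested genes, was under 0.1. The background was 29.9% of all tested genes called in KO (16.4% higher, 13.5% lower) and 31.6% in KI (16.1% higher, 15.4% lower), against 45.9% of the tested members in each. The members were more abundant than most genes, with a median of 32.9 CPM against 5.30 CPM for all tested genes, and their excess over the background was not tested. The median log2 fold change of the tested members was 0.09 in KO and 0.18 in KI, against 0.03 and 0.05 for all tested genes. Both mutants were compared with the same WT libraries. Of the called members 14 were called in the same direction in both, 10 of them higher and 4 lower. The share of all tested genes called in both is not given here, so this overlap is not read as particular to the members.

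The changes were modest in size. No member was called past 1 log2 unit in any comparison by edgeR's threshold test or by DESeq2's. By edgeR's, 1.73% of all tested genes were called in KO, 1.95% in KI and 0.00475% between the mutants. No member had an unadjusted p under 0.05 in edgeR's test. Of the 21058 tested genes 730 had one in KO, 828 in KI and 40 between the mutants. The 6 libraries of a mutant lay entirely above WT for 5 members and entirely below for 2 in KO, where 13.1% of all genes did not overlap. In KI they lay above for 5 and below for 3, with 13.9% of all genes not overlapping. Between KI and KO edgeR and DESeq2 called no member (2 had an unadjusted p under 0.05 in edgeR, the lowest adjusted p was 0.961, and 0.0997% of all genes were called, 0.076% higher and 0.0237% lower). For no member did the KI and KO libraries lie apart, as they did for 0.223% of all genes.

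The counts rested in part on scaling and on how alike some libraries were. Scaled by total counts with no TMM factors, 14 members were higher and 3 lower in KO, and 15 higher and 3 lower in KI. That scaling moved the median of all genes to 0.15 in KO and 0.20 in KI. With the closest libraries of each genotype summed (WT 1 and 2, WT 3 and 4, WT 5 and 6, KO 4 and 5, KI 1 and 2, KI 3 and 5) and KI 4 left out, 7 of 41 tested members (17.1%) were called in each comparison, 4 higher and 3 lower, where 15.6% of all genes were called in KO and 12.2% in KI. Without KI 4 alone, 10 were higher and 6 lower in KI (43.2%, against 30.3% of all genes). The call of Ppp1r15b was the one lost. The calls that held in every alternative, and with each library left out in turn, were those of Ppp1r42, Ppp1r11, Ppp1r36, Ppp1r18, Ppp1r26 and Ppp1r9b in both mutants, of Ppp1r13b in KO and of Ppp1r12b in KI.

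**Figure D1:**
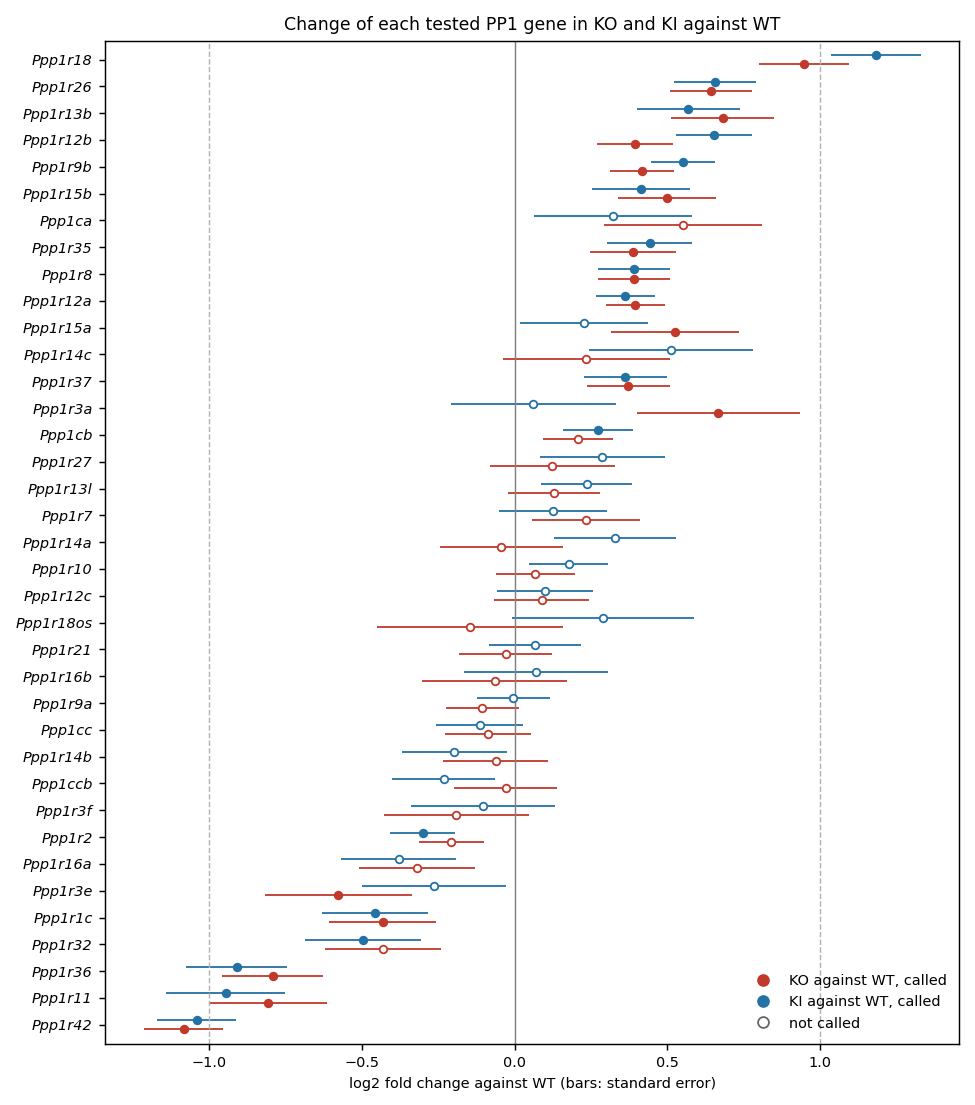
Log2 fold change of each of the 37 tested members in KO (red) and KI (blue) against WT, ordered by the mean of both; bars are standard errors, filled points were called at an adjusted p under 0.1, and dashed lines stand at 1 log2 unit either way. Ppp1r42 (-1.08 in KO), Ppp1r11 and Ppp1r36 lie lowest, Ppp1r18 (1.18 in KI) lies highest, and the catalytic gene Ppp1cc lies near 0.

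Of the 6 members whose calls held in both mutants in every alternative, 4 have a single promoter window in the RefSeq table used. They are shown as examples of a fall (Ppp1r11, Ppp1r36) and of a rise (Ppp1r26, Ppp1r9b). Ppp1r42 and Ppp1r18 had the lowest adjusted p of a fall and of a rise, but no single window. Each window runs 5′ to 3′ on the gene's strand, mostly upstream of the RefSeq start and a little past it (GRCm38.p6). The positions are chr17:36951743-36952042 on the minus strand for Ppp1r11, chr12:76417349-76417648 on the plus strand for Ppp1r36, chr2:28446820-28447119 on the plus strand for Ppp1r26 and chr11:94990962-94991261 on the plus strand for Ppp1r9b. In the GENCODE annotation of the same build Ppp1r26 starts at 28446800, so its window lies inside the gene. Ppp1r9b starts there at 94991035, so most of its window lies past that start. Capitals mark TGACG, searched on both strands (CGTCA on the other), the core of the cAMP response element, whose full form TGACGTCA contains it.
Ppp1r11: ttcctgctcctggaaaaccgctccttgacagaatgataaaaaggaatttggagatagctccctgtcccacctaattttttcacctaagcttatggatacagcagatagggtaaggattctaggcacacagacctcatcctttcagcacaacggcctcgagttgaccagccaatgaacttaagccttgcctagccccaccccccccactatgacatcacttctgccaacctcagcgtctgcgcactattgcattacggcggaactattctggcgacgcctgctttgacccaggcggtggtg
Ppp1r36: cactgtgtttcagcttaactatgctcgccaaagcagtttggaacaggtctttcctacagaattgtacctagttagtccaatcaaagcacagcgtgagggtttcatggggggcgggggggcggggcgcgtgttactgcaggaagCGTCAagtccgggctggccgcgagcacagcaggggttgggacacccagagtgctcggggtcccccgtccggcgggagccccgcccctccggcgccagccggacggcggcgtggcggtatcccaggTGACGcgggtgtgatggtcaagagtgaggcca
Ppp1r26: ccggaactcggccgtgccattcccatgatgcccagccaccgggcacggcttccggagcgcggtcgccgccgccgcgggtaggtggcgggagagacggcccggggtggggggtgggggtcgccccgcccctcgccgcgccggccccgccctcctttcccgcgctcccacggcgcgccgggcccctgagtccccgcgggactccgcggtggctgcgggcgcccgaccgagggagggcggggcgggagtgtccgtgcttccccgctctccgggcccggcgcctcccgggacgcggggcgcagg
Ppp1r9b: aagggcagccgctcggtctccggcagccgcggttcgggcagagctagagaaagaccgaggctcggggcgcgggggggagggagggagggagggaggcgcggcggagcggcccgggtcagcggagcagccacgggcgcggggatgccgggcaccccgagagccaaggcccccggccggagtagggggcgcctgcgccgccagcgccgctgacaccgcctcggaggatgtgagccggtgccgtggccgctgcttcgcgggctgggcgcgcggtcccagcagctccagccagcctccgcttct
The window of Ppp1r36 held 2 matches to TGACG and the other 3 windows held none. CpG dinucleotides numbered 10 in the Ppp1r11 window, 24 in that of Ppp1r36, 39 in that of Ppp1r9b and 48 in that of Ppp1r26. The table matched 35 of the 45 members, with 43 windows. Of these windows 34.9% held TGACG, against 20.8% of all 32851 windows, and the median CpG number was 23 against 7. The full element stood in 2 member windows (4.65%, against 1.79% of all), those of Ppp1r12c and Ppp1r15a, and TATAAA on either strand stood in 16.3% (13.6% of all). A match describes these letters only.

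Most of the catalytic subunit RNA came from Ppp1cc, which encodes the gamma subunit. On the per-length scale (CPM per kilobase of exon) Ppp1cc was at 85.6 ± 4.03 in WT (SD, n = 6), 80.6 ± 13.9 in KO and 79.1 ± 16.3 in KI. Ppp1cb, the beta subunit, was at 3.01 ± 0.35, 3.47 ± 0.33 and 3.63 ± 0.57, and Ppp1ca, the alpha subunit, at 3.66 ± 0.54, 5.34 ± 1.89 and 4.57 ± 2.06. Ppp1cc made up 89.2% ± 0.885 of the catalytic total per length in WT, 86.3% ± 3.17 in KO and 87.3% ± 1.91 in KI. Gene counts do not separate its splice forms. Exon length joins all exons of a gene (3424 bases for Ppp1cc, 10913 for Ppp1cb, 1379 for Ppp1ca), and these shares rest on it. Ppp1ccb, a processed copy of Ppp1cc on chromosome 7 that GENCODE lists as a transcribed pseudogene, was counted at 4.90 to 6.06 CPM in WT. Its level is uncertain, since reads that fit both copies could be split between them or lost.

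**Figure D2:**
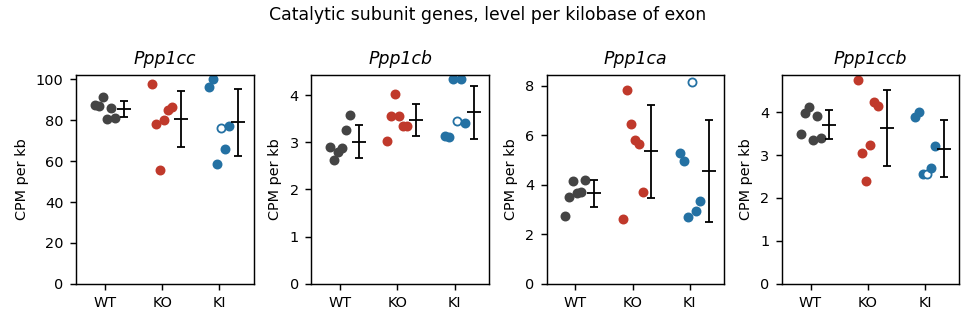
Level per kilobase of exon (CPM per kb, axes from 0, one scale per gene) of the 4 catalytic subunit genes in each library; points are libraries, the open point is KI 4, and black bars give the mean and SD of 6. Ppp1cc lies far above the others in every genotype, with a WT mean of 85.6 against 3.66 for Ppp1ca.

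Ppp1cc was at 277, 295 and 313 CPM in WT (lowest, median and highest library), 191, 282 and 334 in KO and 201, 263 and 343 in KI. The mutant libraries spread to both sides of the WT range. Its log2 fold change was -0.09 (95% interval -0.38 to 0.21, adjusted p = 0.730) in KO and -0.11 (-0.41 to 0.18, adjusted p = 0.619) in KI, so that changes of either sign within these bounds remain possible.

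Ppp1cb was at 28.6, 31.6 and 39.1 CPM in WT, 33.04, 37.7 and 43.9 in KO and 34.0, 37.5 and 47.4 in KI. Its highest values, 47.3 and 47.4 CPM, came from KI 3 and KI 5, a close pair that also had the highest summed spermatocyte markers in KI (1677 and 1656 CPM, with 1089 to 1338 in the other KI libraries). The part of those cells in the result was not tested. Ppp1cb was called higher in KI (0.27 ± 0.11, log2 fold change ± SE, adjusted p = 0.0883) and not in KO (0.21 ± 0.11, adjusted p = 0.209). Leaving out WT 1, WT 2, WT 3, WT 4, KO 2, KO 4, KO 5, KI 3 or KI 5 ended the KI call (adjusted p 0.0393 to 0.202 over all 18 leave-outs).

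Ppp1ca was at 3.75, 5.08 and 5.80 CPM in WT, 3.60, 7.91 and 10.8 in KO and 3.74, 5.72 and 11.3 in KI. Its highest libraries were KO 2 and KI 4, and these had the highest summed spermatogonium markers (72.8 and 76.3 CPM, with 20.9 to 57.8 in the other libraries of KO and KI), whose part was not tested. Ppp1ca was not called, at 0.55 ± 0.26 (adjusted p = 0.134) in KO and 0.32 ± 0.26 (adjusted p = 0.409) in KI. Its KI value without KI 4 was 0.08 (adjusted p = 0.86). Leaving out KI 4, KO 1 or KO 6 brought the KO value under the threshold (lowest adjusted p = 0.0440), as did total-count scaling (0.0497).

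The regulators most abundant per length in WT were Ppp1r11 (163 ± 18.1 CPM per kilobase) and Ppp1r32 (151 ± 25.9), both above Ppp1cc. They were followed by Ppp1r36 (69.3 ± 6.62), Ppp1r42 (63.0 ± 14.3), Ppp1r14b (41.0 ± 7.45) and Ppp1r10 (35.5 ± 4.36). The first and second of these levels overlapped within their spread, as did those of Ppp1r36 and Ppp1r42 and those of Ppp1r14b and Ppp1r10. By CPM, the called members that were lower in KO had a median WT level of 95.9 and those that were higher one of 26.7.

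**Figure D3:**
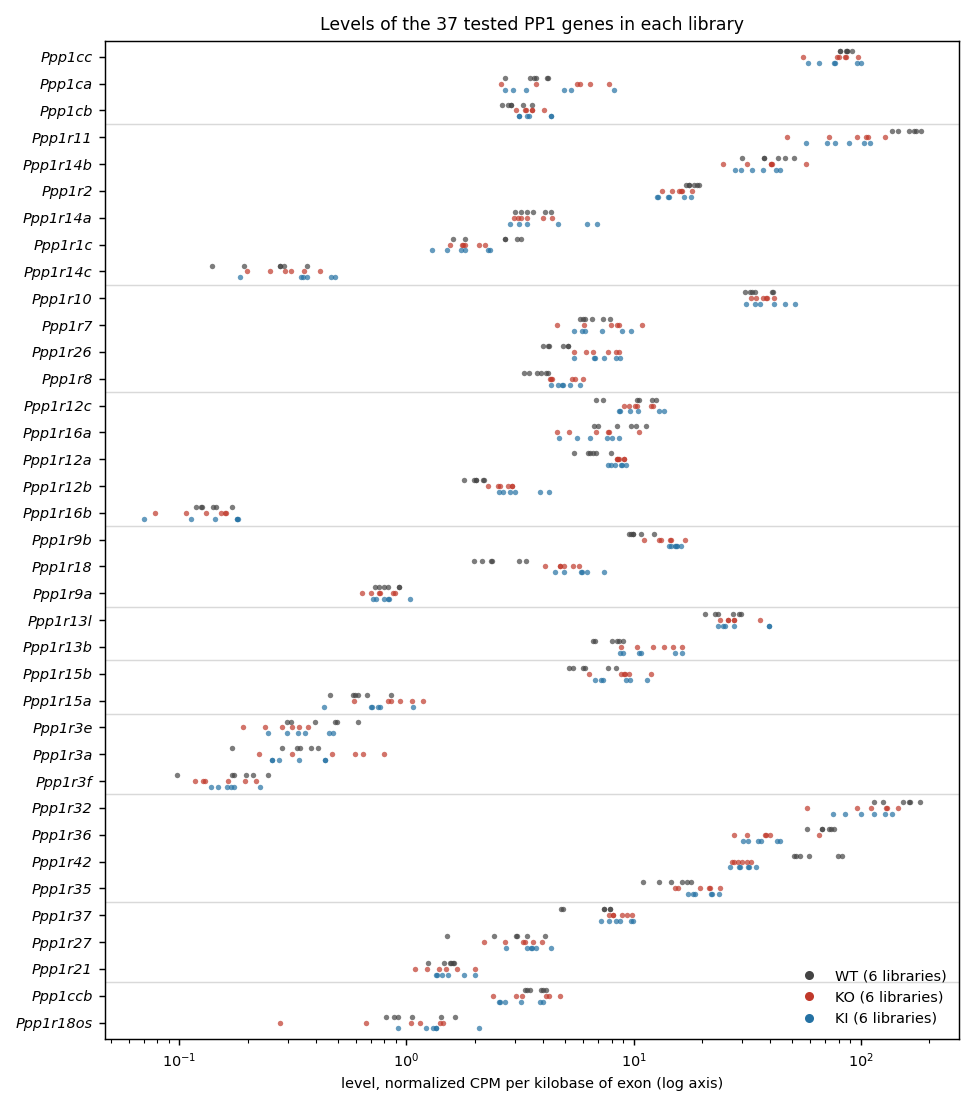
Level of the 37 tested members per kilobase of exon (log axis) in each of the 18 libraries, WT in grey, KO in red and KI in blue, grouped by role from the catalytic subunits at the top to the members without a listed role at the bottom. Ppp1r11 and Ppp1r42 stand to the left of WT in both mutants, while Ppp1r18 and Ppp1r26 stand to its right.

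Of the 4 members tied to the testis and the centriole or cilium, 2 were lower and 1 higher in KO, and 3 were lower and 1 higher in KI. The share of all tested genes called was 29.9% in KO and 31.6% in KI. Ppp1r42 encodes a leucine-rich repeat protein of the testis found at microtubule structures of germ cells (chromosome 1, 9968624 to 10009136, minus strand, GRCm38). It was at 77.3, 86.2 and 126 CPM in WT, 41.4, 44.9 and 50.2 in KO and 40.3, 46.7 and 52.8 in KI. All mutant libraries lay below the lowest WT library, and WT 3 and WT 4 lay above the other WT libraries. The log2 fold change was -1.08 ± 0.13 in KO (adjusted p = 1.96e-06), to 0.472 of WT, and -1.04 ± 0.13 in KI (adjusted p = 2.87e-06), to 0.486 of WT. Without KI 4 the KI value was -1.06 (adjusted p = 9.65e-06).

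Ppp1r36 encodes a PP1-binding protein of the testis, and its promoter is the one above with both TGACG matches. It was at 193, 235 and 256 CPM in WT, 92.3, 127 and 218 in KO and 102, 120 and 148 in KI. KO 1, at 218 CPM, lay inside the WT range, while the other 5 KO libraries and all KI libraries lay below it. The log2 fold change was -0.79 ± 0.17 in KO (adjusted p = 0.00121) and -0.91 ± 0.17 in KI (adjusted p = 2.88e-04). Without KO 1 the KO value was -0.99, and without KI 4 the KI value was -0.87 (adjusted p = 0.00103).

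Ppp1r32, a microtubule-associated protein of cilia and flagella, was at 167, 231 and 266 CPM in WT, 84.7, 174 and 213 in KO and 110, 157 and 200 in KI. The groups overlapped, and KO 3 was lowest. It was called lower in KI (-0.50 ± 0.19, adjusted p = 0.0614) and not in KO (-0.43 ± 0.19, adjusted p = 0.111). The difference between KI and KO was -0.07 (95% interval -0.46 to 0.33), so the mutants were not shown to differ. The KI call was lost without WT 2, WT 3, WT 4, KI 3 or KI 5 (adjusted p up to 0.153), and the KO value was called without WT 6, KO 1 or KI 3 (adjusted p down to 0.0563).

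Ppp1r35, which centrioles need in order to grow, moved the other way. It was at 11.9, 16.8 and 19.3 CPM in WT, 16.5, 22.3 and 26.1 in KO and 18.9, 21.95 and 25.8 in KI, with overlap in both. It was higher in KO (0.39 ± 0.14, adjusted p = 0.0482) and in KI (0.44 ± 0.14, adjusted p = 0.0236), and the call in KO was lost without WT 1, WT 2 or KO 3 (adjusted p up to 0.203 over all alternatives).

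Of the 10 inhibitor genes counted, 6 were tested. No inhibitor was called higher in either mutant, while 2 were called lower in KO and 3 in KI. Of all tested genes 16.4% were called higher and 13.5% lower in KO, and 16.1% and 15.4% in KI. So few inhibitors were tested that the lack of a higher call says little. Ppp1r11 encodes inhibitor-3 and was the most abundant regulator. It was at 271, 332 and 363 CPM in WT, 93.2, 199 and 254 in KO and 113, 164 and 216 in KI. Every mutant library lay below every WT library, with KO 3 lowest and KO 1 highest of KO. The log2 fold change was -0.81 ± 0.19 in KO (adjusted p = 0.00392) and -0.95 ± 0.19 in KI (adjusted p = 9.30e-04), and -0.90 in KI without KI 4 (adjusted p = 0.00298). Its promoter, shown above, held no TGACG and 10 CpGs.

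Ppp1r2 encodes inhibitor-2, which holds PP1 inactive until it is phosphorylated by GSK3. It was at 75.9, 80.1 and 86.2 CPM in WT, 59.3, 71.2 and 80.1 in KO and 56.6, 63.3 and 79.6 in KI. KO 1 and KI 2 lay within the WT range and the other mutant libraries below it. Ppp1r2 was called lower in KI (-0.30 ± 0.11, adjusted p = 0.0422; -0.29 without KI 4) and not in KO (-0.21 ± 0.11, adjusted p = 0.174), and the difference between the mutants was -0.09 (95% interval -0.31 to 0.13). With no TMM scaling the KI value was -0.16 and no longer called (adjusted p = 0.230). The KI call was also lost with no filter on low counts and with KI 4 and KO 3 left out together. Summing the close libraries without KI 4 lost it too (adjusted p up to 0.423 over all alternatives).

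Ppp1r1c, inhibitor-5, was at 9.36, 15.8 and 18.6 CPM in WT, 9.09, 10.4 and 12.9 in KO and 7.58, 10.3 and 13.6 in KI. WT 1 and WT 2, at 10.5 and 9.36 CPM, lay within the mutant ranges and the other WT libraries above them. It was called lower in KO (-0.43 ± 0.17, adjusted p = 0.0793) and in KI (-0.46 ± 0.17, adjusted p = 0.0598). Both calls were lost without WT 3, WT 4, WT 5 or WT 6, the KO call also without KO 1, KO 3, KO 4 or KO 5 and the KI call also without KI 3, KI 5 or KI 6 (adjusted p up to 0.238 in KO and 0.226 in KI over all alternatives).

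The summed level of the 10 inhibitor genes was 461 ± 39.4 CPM in WT, 307 ± 73.2 CPM in KO and 284 ± 53.4 CPM in KI, most of it from Ppp1r11. Ppp1r14b, an inhibitor of the CPI-17 family, was not called (-0.06 ± 0.17 in KO, -0.20 ± 0.17 in KI). Its relative Ppp1r14a was at -0.04 ± 0.20 (adjusted p = 0.915) in KO and 0.33 ± 0.20 (adjusted p = 0.256) in KI, and Ppp1r14c at 0.24 ± 0.27 (adjusted p = 0.600) and 0.51 ± 0.27 (adjusted p = 0.174), with no call. With total-count scaling both were called higher in KI (adjusted p = 0.0855 and 0.0607), as was Ppp1r14c without WT 3 or KI 1. Ppp1r1a, Ppp1r1b, Ppp1r14d and Ppp1r17 were too low to test, with at most 16 counts in a library. Ppp1r1a, inhibitor-1, had 0 counts in all 6 WT libraries, which allows up to 0.112 to 0.146 CPM by library, for counting error only.

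These falls stood beside the fall of the elongating spermatid markers, whose lowest libraries were KO 3 (1626 CPM) in KO and KI 3 (2145 CPM) in KI. KO 3 was also the lowest KO library for Ppp1r11, Ppp1r36, Ppp1r32, Ppp1r2 and Ppp1cc, and KI 3 the lowest KI library for these and for Ppp1r42 and Ppp1r1c. Both were also the lowest of their genotype in summed round spermatid markers (499 and 552 CPM) and the highest in summed spermatocyte markers (1554 and 1677 CPM), and KO 3 had the highest share of mitochondrial rRNA, 21.3%. The part of cell stages, or of library quality, in these falls was not tested.

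**Figure D4:**
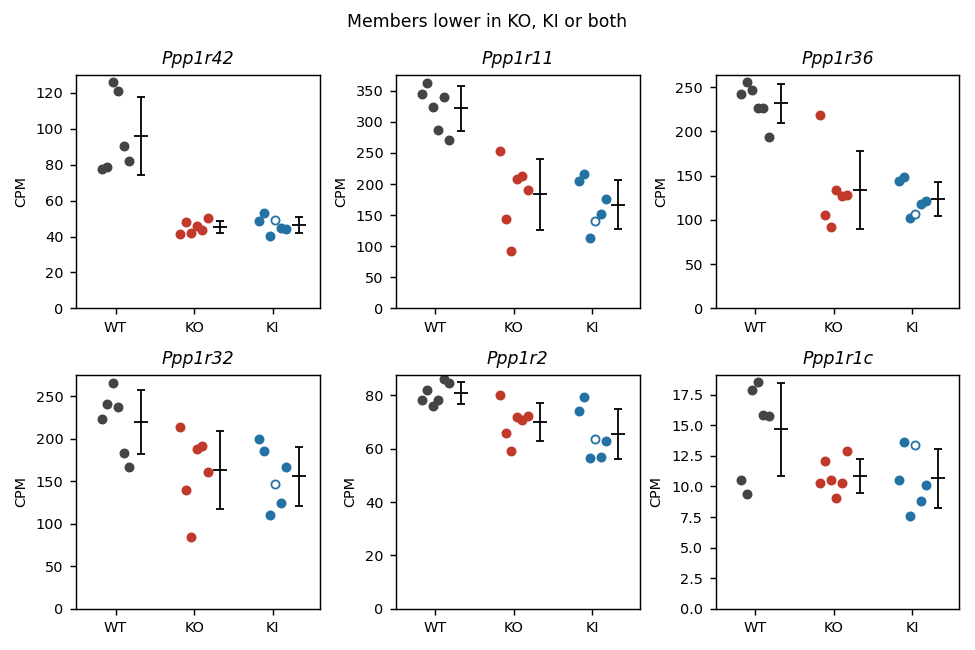
CPM in each library (axes from 0, one scale per gene) of 6 members called lower in KO, KI or both; points are libraries, the open point is KI 4, and black bars give the mean and SD of 6. The mutant points of Ppp1r42 and Ppp1r11 all lie under the lowest WT point, KO 1 of Ppp1r36 (218 CPM) lies among WT, and the groups of Ppp1r32, Ppp1r2 and Ppp1r1c overlap.

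Of the 3 members that bind actin, 2 rose in both mutants. Of all tested genes 16.4% were called higher in KO and 16.1% in KI, and so small a set says little as a group. Ppp1r18 encodes phostensin, which binds actin filaments and brings PP1 to them (chromosome 17, 35865593 to 35875596, plus strand). It was at 8.55, 10.2 and 14.5 CPM in WT, 17.6, 20.9 and 24.8 in KO and 19.4, 25.5 and 32.1 in KI. All mutant libraries lay above all WT libraries. The rise was 0.95 ± 0.15 on the log2 scale in KO (adjusted p = 5.20e-05), 1.93-fold, and 1.18 ± 0.15 in KI (adjusted p = 2.76e-06), 2.27-fold. Without KI 4 the KI value was also 1.18 (adjusted p = 8.38e-06).

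Ppp1r18os, an antisense gene that overlaps the start of Ppp1r18, was at 0.640 to 1.28 CPM in WT and 0.218 to 1.63 CPM over the mutants and was not called (adjusted p = 0.796 in KO and 0.533 in KI). Counting used strand, so reads of this pair were kept apart. Ppp1r10 lies on the same stretch of chromosome 17 (35916434 to 35932283) and was not called, and Ppp1r11, which fell, lies farther along (36948356 to 36951741, minus strand).

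Ppp1r9b, spinophilin, was at 48.5, 50.7 and 62.2 CPM in WT, 56.3, 70.5 and 85.5 in KO and 72.5, 78.0 and 82.3 in KI. KI lay wholly above WT, and of KO the library KO 4 lay within the WT range. The log2 fold change was 0.42 ± 0.11 in KO (adjusted p = 0.00555) and 0.55 ± 0.11 in KI (adjusted p = 4.51e-04; 0.56 without KI 4). Its promoter and that of Ppp1r26, shown above, held the most CpGs of the 4. The relative Ppp1r9a, neurabin, was not called, at -0.11 (95% interval -0.35 to 0.14) in KO and 0.00 (-0.25 to 0.24) in KI.

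Of the 5 genes of myosin phosphatase and its relatives, 2 rose in both mutants. The share of all tested genes called higher was 16.4% in KO and 16.1% in KI. Ppp1r12a encodes MYPT1, which targets PP1 to myosin, and was at 43.9, 52.5 and 63.8 CPM in WT, 67.5, 68.8 and 72.9 in KO and 62.0, 68.4 and 74.6 in KI. KO was tightly grouped above WT, and KI 4, the lowest KI library, lay inside the WT range. The change was 0.40 ± 0.10 in KO (adjusted p = 0.00475) and 0.36 ± 0.10 in KI (adjusted p = 0.00827; 0.39 without KI 4).

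Ppp1r12b, MYPT2, was at 26.9, 30.2 and 32.8 CPM in WT, 34.2, 40.1 and 43.9 in KO and 38.2, 44.0 and 63.3 in KI, above WT in every mutant library. The rise was 0.39 ± 0.12 in KO (adjusted p = 0.0238) and 0.65 ± 0.12 in KI (adjusted p = 4.23e-04; 0.71 without KI 4). Its difference between KI and KO, 0.26 (95% interval 0.00 to 0.52), had an adjusted p of 0.961. Ppp1r12c, Ppp1r16a and Ppp1r16b were not called, with log2 fold changes from -0.38 to 0.10.

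Among the 4 nuclear regulators, Ppp1r26 and Ppp1r8 rose and Ppp1r7 and Ppp1r10 were not called. By comparison, 16.4% of all tested genes were called higher in KO and 16.1% in KI. Ppp1r26, a nucleolar PP1 regulator, was at 22.4, 25.6 and 28.9 CPM in WT, 30.6, 40.3 and 48.7 in KO and 30.8, 39.8 and 49.0 in KI. Every mutant library lay above WT. The change was 0.64 ± 0.13 in KO (adjusted p = 0.00118) and 0.66 ± 0.13 in KI (adjusted p = 8.64e-04; 0.72 without KI 4).

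Ppp1r8 encodes NIPP1, which ties PP1 to splicing and chromatin, and went from 11.1 ± 1.07 CPM in WT to 14.5 ± 2.17 CPM in KO and 14.5 ± 1.52 CPM in KI, again without overlap with WT. Its log2 fold change was 0.39 ± 0.12 in both (adjusted p = 0.0180 in KO and 0.0170 in KI), and 0.34 in KI without KI 4 (adjusted p = 0.0434). Ppp1r7, the SDS22 subunit that is found with PP1 gamma in sperm, was at 60.9, 66.6 and 83.0 CPM in WT and spread from 48.5 to 115 in KO and from 57.3 to 102 in KI. It was not called (0.23 ± 0.18, adjusted p = 0.392 in KO, and 0.13 ± 0.18, adjusted p = 0.666 in KI). Ppp1r10, PNUTS, which works in transcription termination, changed by 0.07 ± 0.13 in KO and 0.18 ± 0.13 in KI, without a call.

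Of the ASPP genes, whose proteins bind p53 and PP1, Ppp1r13b (ASPP1) rose and Ppp1r13l (iASPP) was not called (0.13 ± 0.15 in KO, 0.24 ± 0.15 in KI). Ppp1r13b was at 32.9, 41.0 and 44.4 CPM in WT, 43.7, 63.6 and 81.1 in KO and 43.2, 52.7 and 80.5 in KI. KO 3 and KI 5 lay just inside the WT range, and KO 1, KI 1 and KI 2 were highest. It rose by 0.68 ± 0.17 in KO (adjusted p = 0.00502) and 0.57 ± 0.17 in KI (adjusted p = 0.0161; 0.59 without KI 4).

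The eIF2alpha phosphatase subunits bring PP1 to the translation initiation factor that stress kinases phosphorylate. Ppp1r15b, the constitutive subunit CReP, was at 28.9, 33.9 and 47.0 CPM in WT, 35.5, 51.0 and 66.6 in KO and 38.0, 46.3 and 64.3 in KI. KO 2 and KI 4 were highest, WT 3 and WT 4 were the highest of WT, and the groups overlapped. It was called higher in KO (0.50 ± 0.16, adjusted p = 0.0261) and in KI (0.41 ± 0.16, adjusted p = 0.0625), but without KI 4 the KI value was 0.31 (adjusted p = 0.164). The KI call was also lost without WT 1, WT 2, WT 5, KI 1 or KI 2.

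Ppp1r15a, the stress-induced subunit GADD34, was at 0.629 ± 0.130 CPM per kilobase in WT, against 6.47 ± 1.30 for Ppp1r15b. It was at 1.36, 1.77 and 2.51 CPM in WT, 1.73, 2.63 and 3.49 in KO and 1.28, 2.14 and 3.13 in KI, and all 3 groups overlapped. It was called higher in KO (0.53 ± 0.21, adjusted p = 0.0729) and not in KI (0.23 ± 0.21, adjusted p = 0.482), and the difference between KI and KO was -0.30 (95% interval -0.72 to 0.13). Its KI value without KI 4 was 0.09 (adjusted p = 0.791). The KO call was lost without WT 3, WT 4, WT 5, WT 6, KO 1, KO 2 or KO 4 (adjusted p up to 0.214 over all alternatives).

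The glycogen-targeting subunits were low, with 3 of 7 genes tested and a summed level of 4.84 ± 0.822 CPM in WT, 5.71 ± 1.59 CPM in KO and 4.69 ± 0.739 CPM in KI. Ppp1r3a, the muscle subunit, was at 1.18, 2.33 and 2.83 CPM in WT, 1.56, 3.70 and 5.56 in KO and 1.78, 2.13 and 3.06 in KI. KO overlapped WT at its lower end, and KI overlapped WT through most of its range. It was called higher in KO (0.67 ± 0.27, adjusted p = 0.0762) and not in KI (0.06 ± 0.27, adjusted p = 0.907). Between KI and KO it differed by -0.60 ± 0.27 (unadjusted p = 0.0326, adjusted p = 0.961 by edgeR).

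Ppp1r3e was called lower in KO (1.08 ± 0.30 CPM in WT, 0.72 ± 0.16 in KO, -0.58 ± 0.24, adjusted p = 0.0866) and not in KI (-0.26 ± 0.24, adjusted p = 0.464). The KO call of Ppp1r3a was lost without WT 3, WT 4, WT 5, WT 6, KO 1, KO 4 or KO 5 (adjusted p up to 0.313 over all alternatives), and that of Ppp1r3e without WT 2, WT 4, WT 5, WT 6, KO 1, KO 2, KO 3, KO 6 or KI 6 (up to 0.221). Ppp1r3f was not called, and Ppp1r3b, Ppp1r3c, Ppp1r3d and Ppp1r3g were too low to test, with at most 12 counts in a library.

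Of the remaining regulators Ppp1r37 was called higher in both mutants (27.5 ± 5.98 CPM in WT, 35.6 ± 3.30 in KO, 35.4 ± 4.47 in KI, adjusted p = 0.0492 and 0.0536). WT 3 and WT 4, at 19.6 and 20.1 CPM, stood below the other WT libraries. The KO call was lost without WT 3 or WT 4 and the KI call without WT 4, KI 3 or KI 5 (adjusted p up to 0.190 and 0.201 over all alternatives). Ppp1r21 and Ppp1r27 were not called.

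**Figure D5:**
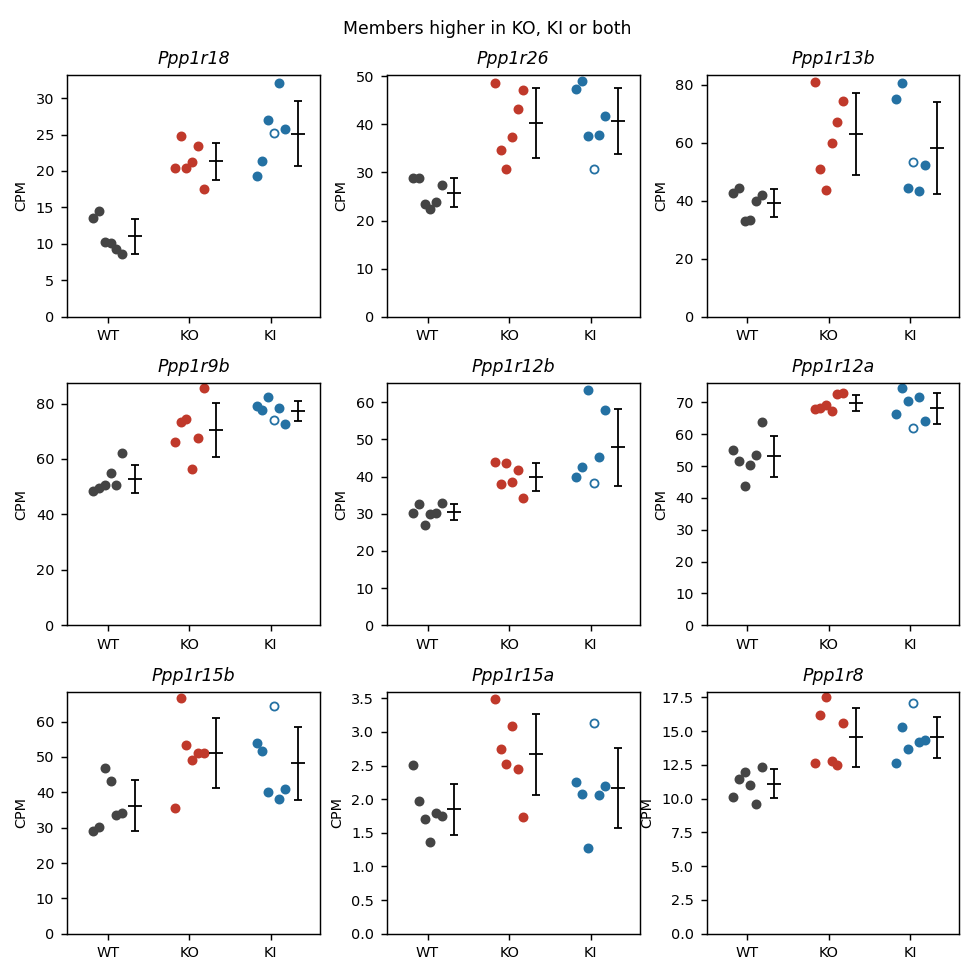
CPM in each library (axes from 0, one scale per gene) of 9 members called higher in KO, KI or both; points are libraries, the open point is KI 4, and black bars give the mean and SD of 6. Mutant points lie above all WT points for Ppp1r18, Ppp1r26, Ppp1r12b and Ppp1r8, and the groups of Ppp1r15a (highest WT library 2.51 CPM) overlap.

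Beside the rises, Leydig cell markers (means of 12.4, 41.2 and 36.3 CPM summed over 6 genes in WT, KO and KI) and endothelial markers (14.8, 24.8 and 23.5 CPM over 5 genes) had higher sums in the mutants. All 6 Leydig but only 2 of the 5 endothelial markers were called higher in each mutant. Spermatogonium markers summed to 35.1, 51.6 and 40.0 CPM over 7 genes, with 2 called higher in KO and 1 in KI. The sums of 5 peritubular myoid markers, smooth muscle genes of the tubule wall, were 5.66, 5.73 and 5.18 CPM. Of 4 myoid markers tested, 2 were called higher and 1 lower in KO, and 1 each way in KI. The part of these cells in the rises was not tested.

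Other proteins that bind PP1 but carry other names were followed as a list of 40 genes, all tested. In KO 14 were higher and 4 lower, and in KI 14 were higher and 6 lower, 45% and 50% of the list against 29.9% and 31.6% of all tested genes. Without KI 4, 11 were higher and 6 lower in KI (42.5%, against 30.3% of all genes). The median level of the list was 35.3 CPM, against 5.30 CPM for all tested genes, and its excess over the background was not tested. Spz1, a spermatogenic transcription factor that binds PP1 gamma, was at 518, 692 and 1080 CPM in WT, 47.1, 196 and 415 in KO and 101, 150 and 191 in KI, with no overlap. It changed by -1.92 ± 0.35 in KO and -2.38 ± 0.36 in KI. Akap1, a mitochondrial anchor of kinases and PP1, fell from 841 ± 123 CPM in WT to 267 ± 115 in KO (-1.66 ± 0.24) and 231 ± 38.2 in KI (-1.87 ± 0.24). Both were past 1 log2 unit in KI (adjusted p = 0.0203 and 0.0393 in edgeR's threshold test) and not in KO (adjusted p = 0.295 and 0.243). Without KI 4 the KI values were -2.31 for Spz1 and -1.83 for Akap1, still past 1 log2 unit (adjusted p = 0.0554 and 0.0941). Tsks, a substrate of the testis-specific kinases, changed by -1.35 ± 0.23 and -1.68 ± 0.23.

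The largest rises among the called partners were those of Wwc1, Shoc2 and Tox4. Shoc2, the scaffold of the SHOC2, MRAS and PP1 complex, was at 13.1, 14.8 and 17.7 CPM in WT, 25.5, 32.6 and 38.3 in KO and 24.6, 31.5 and 36.996 in KI. It rose by 1.10 ± 0.12 in KO (adjusted p = 8.26e-07) and 1.04 ± 0.12 in KI (adjusted p = 1.42e-06; 1.03 without KI 4), with no overlap. Tox4, a partner of PNUTS, rose by 0.82 ± 0.14 and 0.86 ± 0.14, also without overlap, while the PNUTS gene Ppp1r10 was not called. Wwc1, an adaptor of the Hippo pathway, was at 1.73 ± 0.65 CPM in WT and rose by 1.18 ± 0.23 in KO and 0.81 ± 0.23 in KI.

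Kinases and substrates upstream of the PP1 inhibitors and of eIF2alpha made a list of 18 genes, of which 4 were higher and 2 lower in KO, and 4 higher and 4 lower in KI. These made 33.3% and 44.4% of the list, beside 29.9% and 31.6% of all tested genes. Prkcd, a protein kinase C, was at 163, 194 and 241 CPM in WT, 53.4, 72.1 and 97.1 in KO and 52.8, 61.8 and 97.4 in KI, with no overlap. It changed by -1.44 ± 0.17 in KO (adjusted p = 1.16e-06) and -1.58 ± 0.17 in KI (adjusted p = 2.71e-07), past 1 log2 unit in KI (adjusted p = 0.0507). Ilk, the integrin-linked kinase, was lower in both mutants (-0.57 ± 0.16 and -0.63 ± 0.16). Rock1, which phosphorylates MYPT1, rose by 0.51 ± 0.11 in KO and 0.67 ± 0.11 in KI, and Prkca, another protein kinase C, by 0.55 ± 0.12 and 0.47 ± 0.12.

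On the eIF2alpha side, Eif2s1, which encodes eIF2alpha itself, was called lower in KI (-0.43 ± 0.17, adjusted p = 0.0658). Eif2ak3, its kinase PERK, was called higher in KO (0.71 ± 0.27, adjusted p = 0.0590). The means of both genes moved the same way in each mutant. Eif2s1 averaged 109 (KO) and 98.0 (KI) against a WT mean of 132 CPM. Eif2ak3 averaged 1.91 (KO) and 1.62 (KI) against a WT mean of 1.17 CPM. None of the 18 listed genes was called between KI and KO, so neither change was shown to differ between the mutants. Eif2ak1, Eif2ak2 and Eif2ak4, the other kinases of eIF2alpha, were called in neither comparison with WT.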

How the data were processed

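Round spermatid total RNA from 18 libraries had been made into stranded libraries with the Takara Pico kit without poly(A) selection. Per the labels and the study's methods, the authors trimmed reads with cutadapt 3.4, aligned them to GRCm38 (mm10) with STAR 2.7.8a and counted fragments per gene by strand with featureCounts (Subread 2.0.1) on GENCODE annotation, with duplicates marked and kept. The deposited values were raw gene counts, with no normalization, and each gene's exon length.

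Symbols came from GENCODE of the same build and matched 54079 of 54232 identifiers. The members and gene lists were chosen with earlier results of these data known. Genes were filtered with filterByExpr, which kept 21058, scaled by TMM and fitted over all 18 libraries with genotype as the one factor (edgeR 4.0.16, R 4.3.3, limma 3.58.1). Any change was tested with glmQLFTest and a change past 1 log2 unit with glmTreat (worst-case null), both at a Benjamini-Hochberg adjusted p under 0.1. The standard error is the log2 fold change divided by the root of F. Alternatives were DESeq2 1.42.0, other scalings, filters and thresholds, a replicate block and the leaving out or summing of libraries. The scripts were tested on simulated counts. Promoter windows were read from a RefSeq table (GRCm38.p6), and chromosome 18 was left out of all of them. Depth limits low genes most: 3 counts equal 0.112 to 0.160 CPM, and intervals from counts cover counting error only.

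Genes described in full were the catalytic subunits, members known from testis or sperm work, the eIF2alpha subunits, members past 1 log2 unit and the 8 largest rises and falls among called members, and of the other lists the genes past 1 log2 unit and the 3 largest rises and falls. Same-numbered libraries did not deviate together (the correlation of their deviations ran from -0.528 to 0.567 over 18 pairs, with 7 over 0.1), so numbers were not taken as pairs. A search of member proteins for the PP1 docking motif was not made.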

Additional observations from a re-analysis of the deposited data

Results flagged for a closer look

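Among 111 groups of 6 libraries (37 tested members in 3 genotypes), 3 held a library that stood apart from the other 5 by Dixon's test at the 95% level, where chance flags about 1 group in 20. Ppp1r36 was at 218 CPM in KO 1 and at 92.3 to 133 CPM in the other KO libraries. Ppp1r13l was at 130 CPM in KO 6 and at 86.4 to 100.2 CPM in the others. Ppp1r18os, the antisense gene at Ppp1r18, was at 1.63 CPM in KI 1 and at 0.718 to 1.06 CPM in the others.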

How the results depend on the processing

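No called member changed direction under any alternative. With no filter on low counts, 10 members (6 higher, 4 lower, 22.2% of 45) and 11 partners (27.5%) were called in KO, against 12.8% of all genes. In KI that setting called 13 members (28.9%) and 18 partners (45%), against 13.9% of all genes. With close libraries summed and KI 4 left out, 7 members were called in KO and 7 in KI, and 9 partners in each (22.5%). Of all genes 15.6% were then called in KO and 12.2% in KI. Leaving out each library in turn gave 12 to 18 members in KO, 13 to 17 in KI and 0 between KI and KO, with 0 past 1 log2 unit in all 3 comparisons, and 12 to 19 partners in KO and 16 to 20 in KI. The calls over all genes moved too. In KO they ran from 2908 higher and 2571 lower without KO 2 to 3480 and 3045 without KO 1. In KI they ran from 2946 higher and 2948 lower without WT 2 to 3781 and 3195 without WT 6. Of the 17 members called in KO 11 were called in every leave-out, and of the 17 in KI 12 were; 7 of each were called under every alternative. Scaling by total counts moved the calls over all genes to 5214 higher and 2151 lower in KO (3461 and 2836 with TMM) and to 5628 and 2485 in KI (3397 and 3247).

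With the replicate number as a block, 16 members were called in KO, 17 in KI and 0 between them, and 18 and 19 partners, although the numbers do not pair the libraries. Leaving out KI 4 and KO 3 together, or using the interval null of glmTreat, were choices made after seeing the data: the first gave 15 members in KO and 17 in KI, the second 0 past 1 log2 unit. The planned change of docking motif letters was not run. The lowest members, under 3 counts in some libraries, limit what depth can show.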

Other observations

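Most pseudogenes of Ppp1r2, left out of the members by name, fell in the mutants. Of 7 tested, 5 were lower in KO and 6 in KI, where 13.5% and 15.4% of all tested genes were called lower, and none was called higher in either, while Ppp1r2 itself was called lower in KI alone. Ppp1r2-ps3, the most abundant, was at 50.3, 60.8 and 71.2 CPM in WT (lowest, median and highest library), 27.3, 39.9 and 45.4 CPM in KO and 25.7, 30.9 and 36.4 in KI, with no overlap, and changed by -0.63 ± 0.13 (adjusted p = 9.48e-04) and -0.94 ± 0.13 (adjusted p = 1.10e-05) on the log2 scale. Ppp1r2-ps7 fell as well, with means of 28.9 ± 5.58 (WT), 14.1 ± 4.01 (KO) and 11.8 ± 2.0006 CPM (KI; SD, n = 6). Ppp1r2-ps9 was not called, at 25.9 ± 6.51, 35.8 ± 12.2 and 29.3 ± 4.94 CPM. These copies resemble Ppp1r2, so the share of reads each received is uncertain.

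4933415F23Rik, which RefSeq names Ppp1r14bl, a copy of the inhibitor Ppp1r14b, was no member by its GENCODE symbol. Its level was 321 ± 51.2 CPM in WT, 214 ± 88.9 CPM in KO and 204 ± 75.2 CPM in KI, and it was called lower in KI (-0.66 ± 0.27, adjusted p = 0.0780) and not in KO (-0.59 ± 0.27, adjusted p = 0.122).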
